A study of Mus musculus with 8 samples.

Results

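The glycolytic enzymes that mouse sperm are known for were followed through RNA arrays of sperm and epididymis. The 9 genes were Hk1, Gpi1, Aldoart1, Aldoart2, Gapdhs, Pgk2, Pgam2, Eno4 and Ldhc, taken by gene symbol from the platform annotation. Of these, 8 had a probe set naming that gene alone, among 19411 genes so measured on the arrays. Gpi1, glucose-6-phosphate isomerase, was not matched to a probe set and was not analysed here. All 8 measured genes passed the filter on low signal, which kept 13587 genes.

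The series compared RNA of C57/Bl6 mice on 3 diets, with 1 Affymetrix array per sample. Sperm came from the caudal epididymis: 3 arrays on control diet, 2 on low protein diet and 1 on caloric restriction. The 2 remaining arrays held epididymal tissue, 1 on control and 1 on low protein diet. Males on control and low protein diets had been kept on them until 9 to 12 weeks old, while the labels are silent on age for caloric restriction. The labels give neither the composition of the diets nor whether a sample was 1 animal or a pool, so each p-value reflects the scatter of these arrays alone, which could be technical.

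Glycolysis splits glucose into pyruvate in a chain of enzymes, and lactate dehydrogenase then turns pyruvate into lactate to keep the chain running. In mouse sperm the chain is anchored along the fibrous sheath of the tail and supplies much of the ATP for motility. Several steps are run there by germ cell forms, encoded by genes of their own or by retrogenes copied from the somatic gene. Transcription stops when the spermatid nucleus is packed, so RNA in mature sperm is a remnant of spermatid RNA and of whatever other cells came along.

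Upstream sequence is shown for 5 of the genes: Gapdhs, Pgk2, Ldhc and Pgam2, which separated sperm from epididymis most widely, and Hk1, which did so only on a probe set chosen after its values were seen. Each is the 250 bases before an annotated start, 5′ to 3′, credited to RefSeq on build GRCm38.p6. Gapdhs, Hk1 and Ldhc have 2 listed starts each; the upstream one is shown, and for Gapdhs both. Capitals mark TGACATCA, the shorter TGACG, the GC box GGGCGG and the CCAAT box, or their reverse complements.
Gapdhs, chr7:30743682-30743931, minus strand: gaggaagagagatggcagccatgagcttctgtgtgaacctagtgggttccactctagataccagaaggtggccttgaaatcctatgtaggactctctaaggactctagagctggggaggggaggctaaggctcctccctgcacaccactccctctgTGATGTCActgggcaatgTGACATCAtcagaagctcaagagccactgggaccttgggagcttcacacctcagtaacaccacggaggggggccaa
Gapdhs, second start, chr7:30739408-30739657, minus strand: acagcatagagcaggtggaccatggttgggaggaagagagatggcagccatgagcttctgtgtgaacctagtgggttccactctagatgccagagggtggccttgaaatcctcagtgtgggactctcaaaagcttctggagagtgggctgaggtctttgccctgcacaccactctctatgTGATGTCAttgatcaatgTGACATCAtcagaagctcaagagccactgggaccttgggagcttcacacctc
Hk1, chr10:62379909-62380158, minus strand: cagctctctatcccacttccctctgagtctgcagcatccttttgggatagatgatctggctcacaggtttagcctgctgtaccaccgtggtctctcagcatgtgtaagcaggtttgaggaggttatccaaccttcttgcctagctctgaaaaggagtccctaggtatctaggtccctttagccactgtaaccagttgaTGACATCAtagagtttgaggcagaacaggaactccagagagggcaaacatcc
Pgam2, chr11:5803797-5804046, minus strand: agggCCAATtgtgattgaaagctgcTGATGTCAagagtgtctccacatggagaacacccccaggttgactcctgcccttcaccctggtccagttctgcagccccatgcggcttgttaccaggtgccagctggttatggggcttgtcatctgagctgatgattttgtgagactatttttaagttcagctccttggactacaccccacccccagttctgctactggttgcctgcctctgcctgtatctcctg
Ldhc, chr7:46861013-46861262, plus strand: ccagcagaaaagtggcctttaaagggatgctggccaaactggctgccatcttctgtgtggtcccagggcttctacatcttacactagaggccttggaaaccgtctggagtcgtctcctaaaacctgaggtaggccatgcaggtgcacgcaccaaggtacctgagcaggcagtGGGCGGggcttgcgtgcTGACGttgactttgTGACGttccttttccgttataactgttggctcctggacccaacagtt
Pgk2, chr17:40208610-40208859, minus strand: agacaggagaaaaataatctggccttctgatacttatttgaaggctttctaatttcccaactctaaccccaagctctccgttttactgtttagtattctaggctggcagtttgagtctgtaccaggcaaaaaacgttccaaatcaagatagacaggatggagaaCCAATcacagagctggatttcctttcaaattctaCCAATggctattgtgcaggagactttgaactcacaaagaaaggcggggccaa

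Of the 9 genes, 8 had an entry in the RefSeq promoter table, with 11 windows in all; Aldoart1 did not. The element bound by CREB and CREM, TGACGTCA, was in none of the 11 windows and in 1.55% of 32851 windows of the same length. The form with 1 changed base, TGACATCA, was in 4 of the 11 windows, of 3 genes, against 2.93% of all windows. Gapdhs held it on both strands before both of its starts, at 94 to 87 and 76 to 69 bases before the first and at 70 to 63 and 52 to 45 bases before the second. The paired copies lie 4298 bases apart in the genome, and with the windows set against each other there, without gaps, 120 of 226 bases were identical, with 1 identical run of 57 bases. Hk1 held it at 52 to 45 bases and Pgam2 at 225 to 218 bases before the start. Ldhc held a pair of the shorter element TGACG, at 61 to 57 and 47 to 43 bases, beside the GC box GGGCGG at 78 to 73 bases. TGACG was in 1 of the 11 windows and in 17.8% of all windows. The GC box was in 2 of the 11 windows, of 2 genes, and in 32.7% of all windows. Pgk2 held CCAAT at 86 to 82 and 52 to 48 bases. That motif was in 2 of the 11 windows, of 2 genes, and in 33.8% of all windows. TATAAA was in 0 of the 11 windows and in 12.4% of all windows. The motifs were chosen with these sequences in view, both strands were searched, TGACG lies within TGACGTCA, and a match is a description of letters only.

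Among the sperm arrays, low protein replicate 2 stood apart, with a Pearson correlation across the tested genes of 0.71 to 0.86 with the other sperm arrays, which correlated at 0.85 to 0.98 among themselves. Array medians lay between 6.08 and 6.17 on the log2 intensity scale. In bulk RNA, fewer cells of a type and less RNA per cell cannot be told apart.

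For Hk1, the hexokinase that starts the chain, the 2 probe sets naming it alone gave different answers. The probe set of higher mean lists a single accession, which stands also on the other Hk1 probe set and on all 16 probe sets that name Hk1 together with the ribosomal protein gene Rpl17. It read 11.74, 12.05 and 12.04 in control sperm, 11.89 and 11.09 under low protein diet, 11.79 in caloric restriction sperm, and 12.03 and 11.96 in control and low protein epididymis. It was bright in both tissues and lowest in low protein replicate 2. On this probe set sperm minus epididymis, as a plain difference of means, was -0.23, and on the 16 shared probe sets it ran from -0.73 to -0.24. Low protein replicate 2 lay -0.85 from the control mean on it and -0.91 to -0.67 on those 16.

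The other Hk1 probe set lists 8 accessions, with RefSeq transcripts among them, and read 10.97, 10.76 and 10.76 in control sperm. It read 11.45 and 12.02 under low protein diet, 11.70 in caloric restriction sperm, and 8.14 and 8.02 in epididymis. All 6 sperm arrays lay above both epididymis arrays by at least 2.62, and the 3 restricted diet arrays above the 3 controls. The rule of highest mean selects the first probe set; values of the second are given beside it, a choice made after the values were seen.

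**Figure D1:**
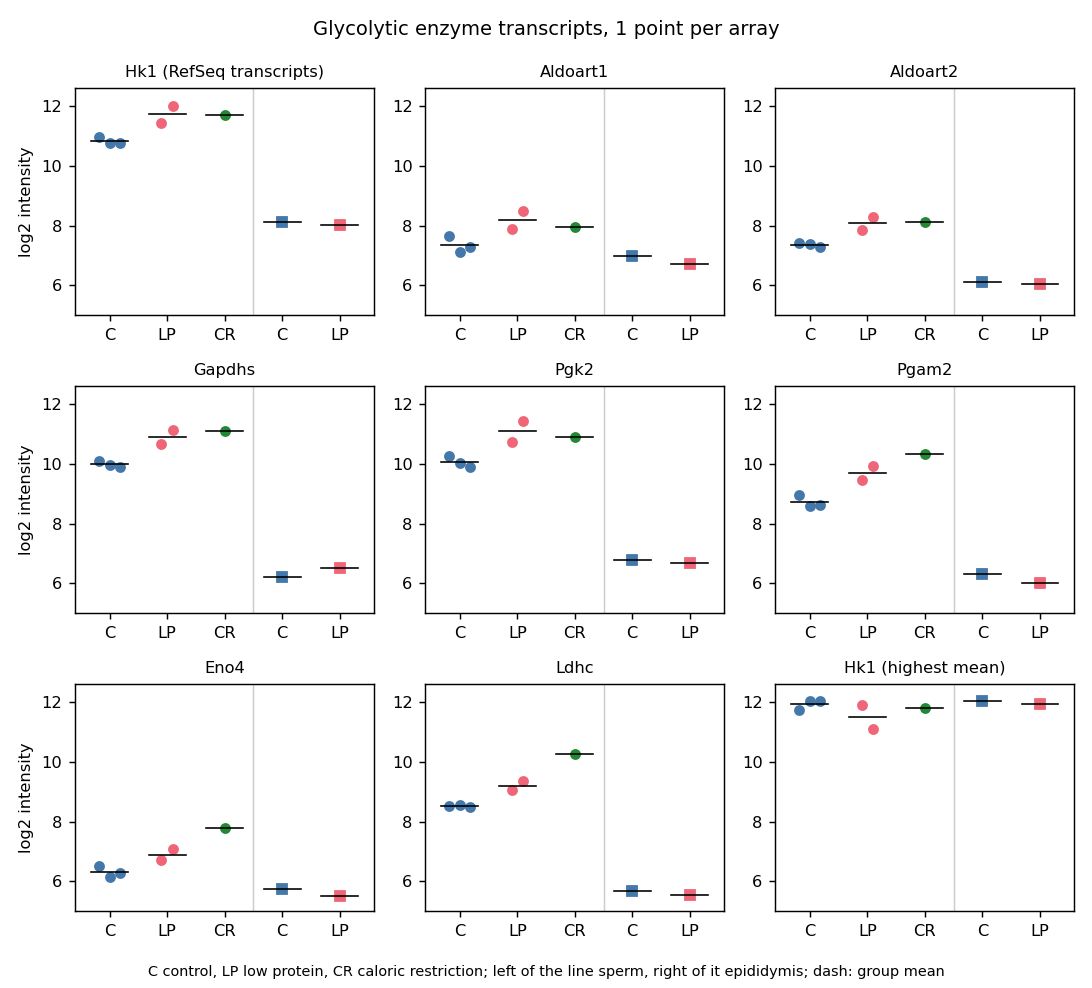
Log2 intensity (y axis) of each glycolytic enzyme transcript in 8 arrays, with sperm of 3 diets left of the vertical line and epididymis of 2 diets right of it; points are arrays and dashes are group means. Gapdhs lies between 9.90 and 11.15 in sperm and at 6.23 and 6.52 in epididymis, while the Hk1 probe set of highest mean shows no such step.

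The first comparison asked how the enzymes' transcripts differ between sperm and the tissue that surrounds them. Gapdhs, Pgk2, Ldhc and Pgam2 rose by 3.00 to 4.06 on the log2 scale in sperm, Aldoart2 by 1.61, and Eno4 and Aldoart1 by about 0.9. By limma with Benjamini-Hochberg adjustment over 13587 genes, 7 of 8 rose and 0 fell, where 18.4% of all genes tested rose and 30.1% fell. Their median change was 2.31, against -0.08 over all genes tested. With the RefSeq probe set for Hk1 the count was 8 of 8 and the median 3.09. Tissue and diet entered the fit of 8 arrays as additive terms, so the caloric restriction array fixes only its own diet term.

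Gapdhs, the sperm form of glyceraldehyde-3-phosphate dehydrogenase, read 10.10, 9.97 and 9.90 in control sperm, 10.68 and 11.15 under low protein, and 11.10 in caloric restriction sperm. In control and low protein epididymis it read 6.23 and 6.52. Every sperm array was above both epididymis arrays, by at least 3.38. The rise was 4.06 ± 0.20 (SE; 5 sperm and 2 epididymis arrays set this effect), or 16.6-fold on the intensity scale, with an adjusted p by limma of 1.2e-05.

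Pgk2, the retrogene form of phosphoglycerate kinase, makes ATP at the next step. It read 10.26, 10.05 and 9.90 in control sperm, 10.75 and 11.45 under low protein diet, 10.89 in caloric restriction sperm, and 6.79 and 6.68 in epididymis. The sperm arrays again stood clear of the epididymis arrays, by at least 3.11. Its rise was 3.81 ± 0.28, or 14.1-fold, with an adjusted p by limma of 4.1e-05.

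Ldhc, the testis lactate dehydrogenase, was the tightest of the genes among controls, at 8.51, 8.54 and 8.49. It read 9.04 and 9.36 under low protein diet, 10.26 in caloric restriction sperm, and 5.69 and 5.55 in epididymis. The lowest sperm array was 2.80 above the higher epididymis array. Its rise was 3.21 ± 0.20, with an adjusted p by limma of 2.5e-05.

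Pgam2, the phosphoglycerate mutase of muscle and testis, read 8.95, 8.59 and 8.63 in control sperm, 9.48 and 9.93 under low protein diet, 10.33 in caloric restriction sperm, and 6.32 and 6.03 in epididymis. No sperm array overlapped the epididymis arrays. Its rise was 3.00 ± 0.28, with an adjusted p by limma of 0.00011. Since Pgam2 is also a muscle gene, 8 skeletal muscle markers were read. Of the 6 tested, 0 rose and 2 fell in sperm, where 18.4% of all genes tested rose and 30.1% fell. Their median change was -0.0018, with 3 above 0 and 3 below. The part of muscle RNA in the Pgam2 signal was not tested. The Hk1 probe set with RefSeq transcripts rose by 3.17 ± 0.25 (adjusted p by limma 5.2e-05), whereas the one of highest mean differed by -0.27 ± 0.23 (adjusted p by limma 0.35). That small difference turned to 0.064 after quantile normalization and 0.18 after cyclic loess.

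The aldolase retrogenes rose less. Aldoart2 read 7.43, 7.40 and 7.28 in control sperm, 7.86 and 8.29 under low protein diet, 8.12 in caloric restriction sperm, and 6.12 and 6.06 in epididymis. Its arrays did not overlap between tissues, and it rose by 1.61 ± 0.20 (adjusted p by limma 0.00044). Aldoart1 read 7.66, 7.11 and 7.28 in control sperm, 7.89 and 8.49 under low protein diet, 7.96 in caloric restriction sperm, and 6.99 and 6.71 in epididymis. Its lowest sperm array was only 0.13 above the higher epididymis array, and the rise of 0.89 ± 0.28 (adjusted p by limma 0.030) was the smallest of those called.

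Eno4, an enolase that sperm need for motility and an intact tail, read 6.52, 6.15 and 6.30 in control sperm. It read 6.71 and 7.07 under low protein diet, 7.79 in caloric restriction sperm, and 5.74 and 5.51 in epididymis. Its sperm arrays lay at least 0.41 above the epididymis arrays, and it rose by 0.96 ± 0.21 (adjusted p by limma 0.0063). Arrays of 7 of the 8 genes did not overlap between tissues, as for 24.8% of all genes tested.

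Without the low protein epididymis array, a fit with 1 epididymis array, fewer of all genes tested passed than with both. Aldoart1, at 0.36, and Eno4, at 0.59, then missed the threshold. Aldoart1 also missed the threshold without control sperm replicate 1 (0.85, adjusted p by limma 0.071). The files used give no probe sequences, so how far a probe set separates a retrogene from its parent gene was not tested.

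**Figure D2:**
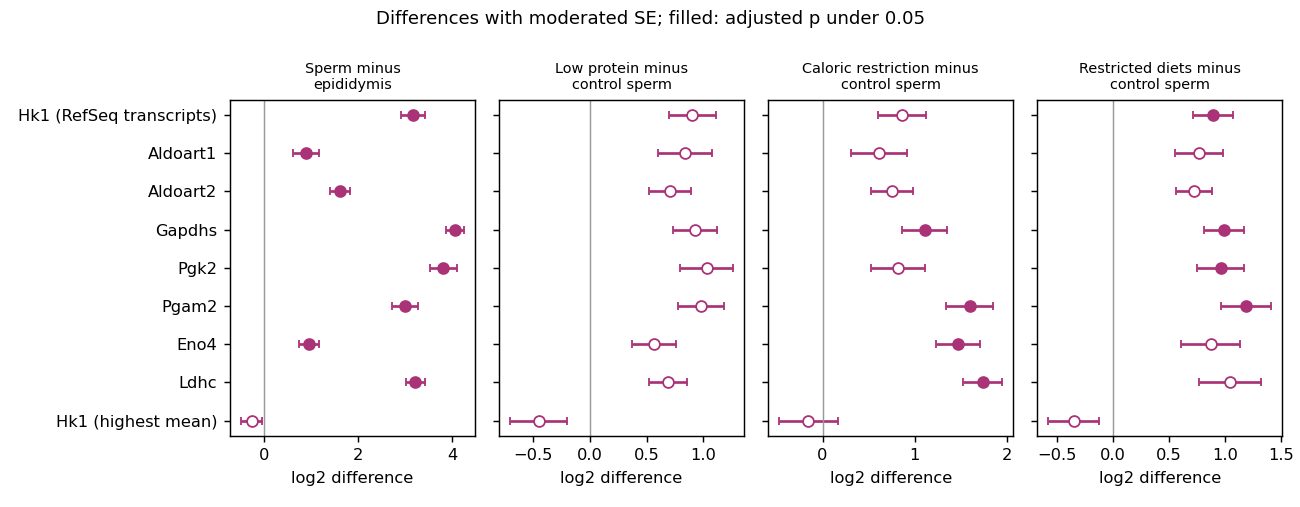
Log2 difference (x axis) with its moderated standard error for each enzyme in 4 comparisons, sperm with epididymis and low protein, caloric restriction or both with control sperm; filled points have an adjusted p by limma under 0.05. The step between tissues reaches 4.06 for Gapdhs, while the differences from control sperm run from -0.45 to 1.74.

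Somatic counterparts moved the other way between the tissues. Pgk1 fell by 1.70 ± 0.31, Pgam1 fell by 1.14 ± 0.25, Ldha fell by 1.03 ± 0.13 and Aldoa fell by 0.88 ± 0.14 in sperm (adjusted p by limma 0.0027, 0.0058, 0.00043 and 0.0014). Aldoa and Ldha, at -0.37 and -0.51, were past no threshold after cyclic loess (adjusted p by limma 0.20 and 0.051), and Pgk1 and Pgam1 missed it without the low protein epididymis array. The difference of a germ cell form from its somatic form within an array removes what moves both alike; its absolute size compares different probes and has no meaning as an abundance. Pgk2 minus Pgk1 was 2.47 ± 1.17 (SD, n = 6) in sperm and -3.05 ± 0.024 (SD, n = 2) in epididymis. In control sperm it was 2.05, 1.43 and 1.29, in low protein sperm 2.50 and 4.39, and under caloric restriction 3.14.

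The 2 epididymis arrays were nearly equal on this measure. The sperm arrays were all higher and ran from 1.29 to 4.39, with low protein replicate 2 the highest. They span 3 diets, and an SD of 2 arrays is a poor gauge, so the spreads of the tissues were not compared. Ldhc minus Ldha was 0.061 ± 0.47 in sperm and -4.27 ± 0.11 in epididymis, a step of 4.33. Pgam2 minus Pgam1 made a step of 4.26, Aldoart2 minus Aldoa of 2.45 and Aldoart1 minus Aldoa of 1.69. In all 5 pairs the 6 sperm arrays lay above both epididymis arrays. For each pair the exact two-sided permutation p was 0.0714, also after Benjamini-Hochberg adjustment over the 5 pairs, which is the smallest that 6 against 2 arrays allow. Gapdh and Eno1, the partners of Gapdhs and Eno4, were not matched to a probe set of 1 gene and were not analysed here.

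**Figure D3:**
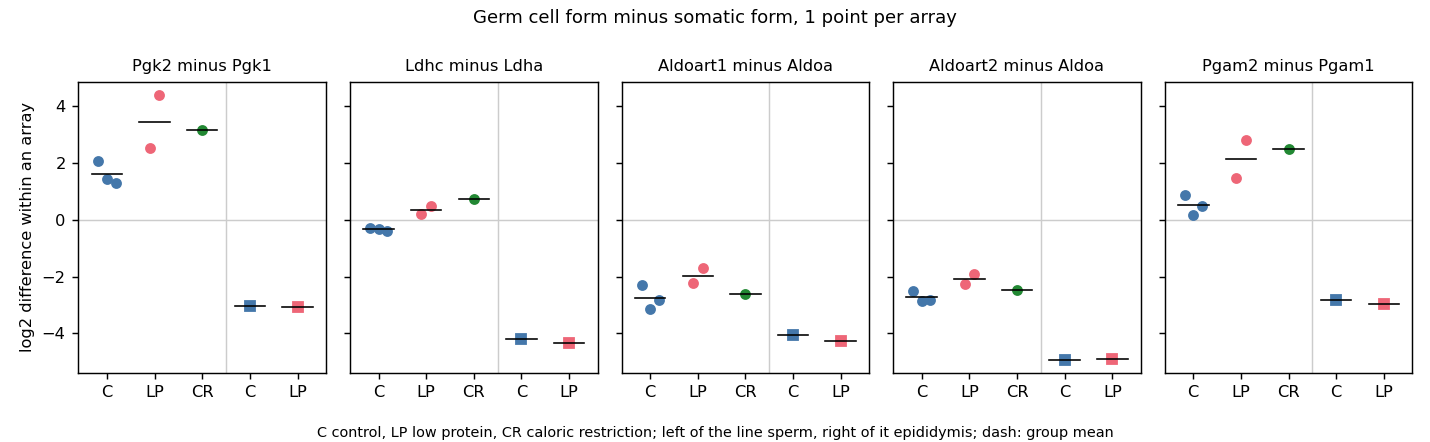
Log2 difference within each array (y axis) between a germ cell form and its somatic form for 5 pairs, by diet and tissue; points are arrays and dashes are group means. The sperm arrays lie above both epididymis arrays in every pair, and for Pgk2 minus Pgk1 they spread from 1.29 to 4.39.

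Of 22 other glycolytic isoforms listed, 18 had a probe set and 15 were tested. Between sperm and epididymis 2 rose, 8 fell and 5 did not pass, with a median change of -0.88. Of all genes tested 18.4% rose and 30.1% fell. The largest falls after Pgk1 were those of Aldoc, an aldolase of brain, by 1.32 ± 0.16 and Pfkl, the liver phosphofructokinase; Pfkl differed by -1.24 ± 0.27 and missed the threshold without the low protein epididymis array. The 2 that rose, named after their values were seen, were Tpi1, triose phosphate isomerase, by 0.55 ± 0.19 and Eno3, the muscle enolase, by 0.46 ± 0.14. Tpi1 read 10.26 and 10.14 in epididymis and from 10.37 to 11.25 in sperm, so its arrays did not overlap. Its call was lost after median centring, among other settings. After cyclic loess 2 of the 15 rose and 5 fell, where 50.7% of all genes tested were called in either direction. Without the low protein epididymis array, a fit with 1 epididymis array, fewer of this list and of all genes tested passed.

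Of 20 genes of fuel transport and supply, 16 had a probe set and 15 were tested. Of these 4 rose and 6 fell, with a median change of -0.34, where 18.4% of all genes tested rose and 30.1% fell. The counts of this list are thus not far from those shares. Slc16a1, a monocarboxylate transporter, fell by 1.72 ± 0.26 and Pdha1, the somatic pyruvate dehydrogenase subunit, fell by 1.67 ± 0.32, a call lost without the low protein epididymis array. Gpd2, the mitochondrial glycerol-3-phosphate dehydrogenase, rose by 1.68 ± 0.21. It read 8.25, 8.16 and 8.03 in control sperm, 8.68 and 9.06 under low protein diet, 9.25 in caloric restriction sperm, and 6.87 and 6.74 in epididymis. The other risers, named after their values were seen, were Pgp, phosphoglycolate phosphatase (1.18 ± 0.18), Slc16a7, a lactate and pyruvate transporter (1.06 ± 0.21), and Slc2a5, a fructose transporter (0.78 ± 0.19). Without the low protein epididymis array fewer of this list and of all genes tested passed.

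**Figure D4:**
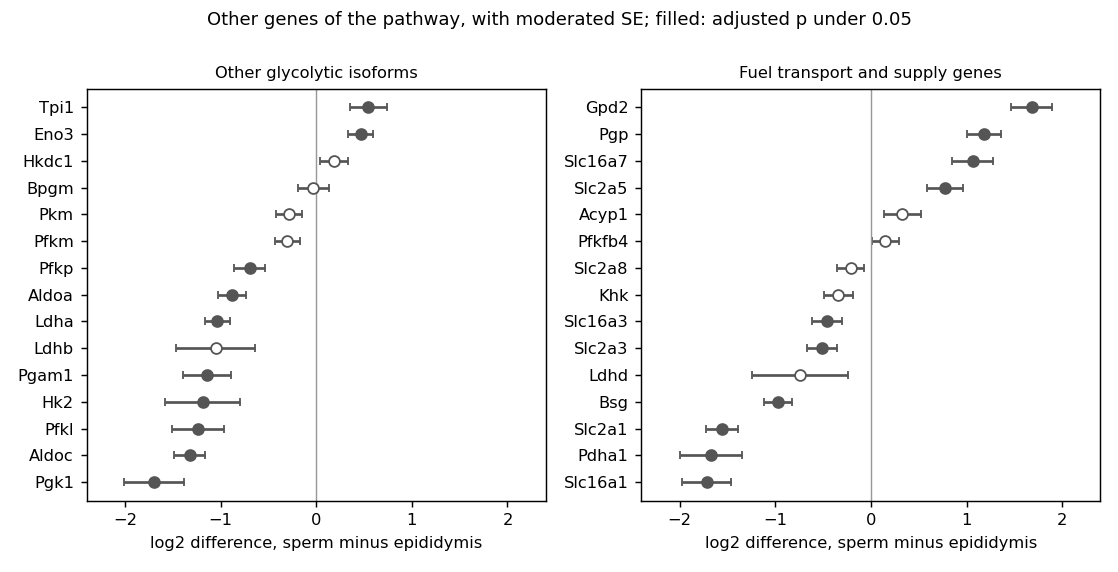
Log2 difference between sperm and epididymis (x axis) with its moderated standard error for 15 other glycolytic isoforms and 15 genes of fuel transport and supply; filled points have an adjusted p by limma under 0.05. Most isoforms lie below 0, with Pgk1 lowest at -1.70, and Gpd2 is the highest of the supply genes at 1.68.

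The scale of the comparison shifted with the normalization: cyclic loess moved the median over all genes tested from -0.08 to 0.049 between the tissues, and from -0.11 to -0.0062 between caloric restriction and control sperm. The enzymes other than Hk1 by its highest mean probe set kept their direction in both comparisons under every normalization tried.

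The next comparisons asked how the enzymes' transcripts in sperm differ with the diet of the males that gave the sperm. Under low protein diet, 7 of 8 genes read higher in both arrays than in all 3 controls, as did 18.8% of all genes tested. None passed the test. Pgk2 stood 1.03 ± 0.23 above control (SE; 2 against 3 arrays), Pgam2 0.98 ± 0.20 and Gapdhs 0.93 ± 0.19, with adjusted p by limma of 0.087, 0.085 and 0.085. Aldoart1 differed by 0.84 ± 0.24, Aldoart2 by 0.70 ± 0.18, Ldhc by 0.69 ± 0.17 and Eno4 by 0.57 ± 0.19 (adjusted p by limma 0.094 to 0.15). Hk1 differed by -0.45 ± 0.25 on the probe set of highest mean (0.032 after cyclic loess) and by 0.90 ± 0.21 on the one with RefSeq transcripts.

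Limma called 0 of 8 genes, and 0% of all genes, with 7 of 8 and 3406 of 13587 below 0.05 before adjustment. Robust eBayes and eBayes with a trend called 0 genes, and after cyclic loess 237 genes and 0 of the 8 were called. The low protein arrays differed from each other: replicate 2 was above replicate 1 for 7 of the 8 genes, as for 52.9% of all genes tested. Pgk2 read 10.75 and 11.45 in them, and Hk1 by its highest mean probe set 11.89 and 11.09, the other way. Without replicate 2 the median difference was 0.53, against 0.77 with both arrays, and 0 were called. Without replicate 1 it was 1.03 and 8 of 8 were called, Hk1 as lower, where 37.9% of all genes were called; the lone array was then assumed to vary like the controls.

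In the single caloric restriction array, Ldhc, Pgam2, Eno4 and Gapdhs rose against control. The change of Ldhc was 1.74 ± 0.21 (SE; 1 array against 3), of Pgam2 1.60 ± 0.26, of Eno4 1.47 ± 0.24 and of Gapdhs 1.11 ± 0.24. These are 3.34-fold, 3.03-fold, 2.77-fold and 2.16-fold on the intensity scale, with adjusted p by limma of 0.0039, 0.011, 0.011 and 0.037. So 4 of 8 rose, where 5.53% of all genes tested rose and 0.0368% fell.

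The other enzymes read higher without passing: Pgk2 differed by 0.82 ± 0.30, Aldoart2 by 0.75 ± 0.23 and Aldoart1 by 0.61 ± 0.31 (adjusted p by limma 0.21, 0.13 and 0.36). Hk1 differed by -0.15 ± 0.32 on the probe set of highest mean (0.068 after cyclic loess) and by 0.87 ± 0.26 on the other (adjusted p by limma 0.82 and 0.12). The caloric restriction array was above all 3 controls for 7 of 8 genes, as for 27.3% of all genes tested. A single array has no spread of its own, so these values describe that array. Without control replicate 1, 2 or 3 the count was 3, 1 and 1, where 3.58%, 2.19% and 2.4% of all genes tested were called. Ldhc was called each time. Without either low protein array the median change of the 8 genes stayed at 0.97, with the spread then set by the controls alone.

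Of the 15 other isoforms tested, 2 rose in that array: the phosphofructokinases Pfkp by 1.16 ± 0.19 and Pfkm by 0.96 ± 0.19, with 0 falling. Pfkp read 6.21, 6.14 and 6.15 in control sperm, 6.57 and 6.69 under low protein, and 7.32 in caloric restriction sperm. Of the 15 supply genes 3 rose and 0 fell: Slc16a7 by 1.95 ± 0.21, Slc2a5 by 1.60 ± 0.25 and Gpd2 by 1.10 ± 0.23. Beside both lists, 5.53% of all genes tested rose and 0.0368% fell. Slc16a7 read 6.70, 6.50 and 6.57 in control sperm, 7.23 and 7.44 under low protein, and 8.54 in caloric restriction sperm. Slc16a7 stayed past the threshold in all 14 alternatives (highest adjusted p by limma 0.023), and Slc2a5 missed it only without control replicate 2 (adjusted p by limma 0.050). Pfkp missed it without control replicate 2 or 3, and Pfkm and Gpd2 without any 1 control array and after quantile normalization, Gpd2 also with a trend in eBayes. Gapdhs missed it without any 1 control array, after quantile normalization (1.07) and cyclic loess (1.30), and with a trend in eBayes (adjusted p by limma 0.13, 0.087 and 0.13 for the last 3).

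With the restricted diets together against control, Pgam2, Gapdhs and Pgk2 rose. Pgam2 rose by 1.19 ± 0.23 (SE; 3 restricted and 3 control arrays), Gapdhs by 0.99 ± 0.17 and Pgk2 by 0.96 ± 0.21, with adjusted p by limma of 0.041, 0.041 and 0.048. So 3 of 8 rose, or 4 of 8 with the RefSeq probe set for Hk1 (0.89 ± 0.18, adjusted p by limma 0.044), where 2.72% of all genes tested rose. Ldhc differed by 1.04 ± 0.28, Eno4 by 0.87 ± 0.26, Aldoart1 by 0.76 ± 0.21 and Aldoart2 by 0.72 ± 0.16, short of the threshold (adjusted p by limma 0.052 to 0.10). For 7 of 8 genes the 3 restricted arrays lay above the 3 controls, as for 15% of all genes tested. Of the other isoforms 0 of 15 passed, and of the supply genes Gpd2 rose, by 0.85 ± 0.18, a call lost without any 1 control array or the caloric restriction array. The count of 3 was 0 without any 1 control array or the caloric restriction array, where 0% of all genes tested were called. It was 0 by eBayes with a trend, where 1.24% of all genes were called. Without low protein replicate 1 and 2 it was 6 and 5, where 10.5% and 4.81% of all genes were called. It was 2 with a stricter filter on low signal, where 2.03% of all genes were called. After median centring or cyclic loess it was 4, where 3.16% and 4.34% of all genes were called. Pgk2 missed the threshold after quantile normalization, after cyclic loess, with the stricter filter and with a trend in eBayes (adjusted p by limma 0.054 to 0.083). The 3 comparisons with control share the same control arrays.

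Between the 2 restricted diets none of the enzymes passed the test. Ldhc, Pgam2 and Eno4 read higher in the caloric restriction array than in both low protein arrays, as did 30.1% of all genes tested. Low protein minus caloric restriction was -1.05 ± 0.22 (SE; 2 arrays and 1 array) for Ldhc, -0.90 ± 0.26 for Eno4 and -0.62 ± 0.27 for Pgam2 (adjusted p by limma 0.13, 0.24 and 0.52). For Gapdhs it was -0.19 ± 0.26, for Aldoart2 -0.049 ± 0.25, for Pgk2 0.21 ± 0.31 and for Aldoart1 0.23 ± 0.32 (adjusted p by limma 0.86 to 0.96), so their order between the diets was within the error. Pgk2 and Aldoart1 were brightest in low protein replicate 2. Limma called 0 of 8 genes and 0% of all genes, with 2 of 8 and 1316 of all below 0.05 before adjustment. With a trend in eBayes 23 genes were called, and after cyclic loess 135, with 0 of the 8 each time. Without low protein replicate 1 Ldhc was called, and without replicate 2 Ldhc and Eno4, in fits of 1 array against 1 whose spread comes from the controls alone, so these calls have no replicate check.

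In epididymis, with 1 array per diet and no test, 7 of 8 genes read lower under low protein, as did 53.2% of all genes tested. The differences ran from -0.29 for Pgam2 to 0.30 for Gapdhs. The low protein effect in sperm exceeded that in epididymis by 1.27 ± 0.38 for Pgam2, 1.15 ± 0.43 for Pgk2 and 1.12 ± 0.45 for Aldoart1. The excess was 0.83 for Ldhc, 0.79 for Eno4, 0.77 for Aldoart2 and 0.63 for Gapdhs. For Hk1 it was -0.37 on the probe set of highest mean and 1.02 on the one with RefSeq transcripts. With 1 epididymis array per diet, these errors come from the scatter of the sperm arrays alone. None of the 8 genes passed this test of the difference, added after the data were seen (adjusted p by limma 0.87 to 0.90; 4 of 8 and 610 of all genes at an unadjusted p under 0.05, 0 of all genes past the threshold).

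Profiles over the 8 arrays, each centred on its own mean, were compared by root mean square distance on the log2 scale. Closest to Gapdhs were 1700016H13Rik (0.074), the small heat shock protein gene Hspb9 (0.085) and Stard6 (0.095), against a median distance of 1.89 over all genes tested. Closest to Pgk2 were Ubl4b (0.063), Lrrc8b (0.071) and BB014433 (0.073). Closest to Ldhc were Spata20 (0.13), Fam229b (0.14) and the sperm surface protein gene Spa17 (0.19). The nearest genes lie far below the median by selection. Sperm minus epididymis was 4.12, 4.05 and 3.95 for the neighbours of Gapdhs, against 4.06 for Gapdhs, and this step enters the distance. Among the enzymes, the nearest pairs were Gapdhs with Pgk2 (0.21) and Ldhc with Pgam2 (0.21), and the farthest, Hk1 by its highest mean probe set left aside, were Gapdhs and Aldoart1 (1.41). The profiles share the same 8 arrays.

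Marker lists moved in the same arrays. All 15 late spermatid genes rose in sperm against epididymis, with a median of 2.90, where 18.4% of all genes tested rose. In low protein sperm 15 of 15 read higher than in control sperm without overlap, against 18.8% of all genes (median 0.74, 0 of 15 past the threshold). The caloric restriction array was above all controls for 13 of 15, against 27.3% of all genes. For the restricted diets together it was 13 of 15, against 15% of all genes. In the caloric restriction array 6 of 15 rose, where 5.53% of all genes tested rose (median 0.78, against 0.97 for the glycolytic enzymes). With the restricted diets together 3 of 15 rose, where 2.72% of all genes tested rose (median 0.86, against 0.91 for the enzymes). The mean level of this list was 8.99 to 9.31 in control sperm, 9.73 and 10.01 in low protein sperm, 10.17 in caloric restriction sperm, and 6.64 and 6.58 in epididymis. The mean of the 7 enzymes other than Hk1 followed the same order of groups: 8.25 to 8.49, 8.92 and 9.39, 9.49, and 6.27 and 6.15.

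The mean levels of epididymal epithelium and smooth muscle markers read lower in the same arrays. Of 13 epididymal epithelium genes tested of 22 listed, 11 fell in sperm against epididymis, where 30.1% of all genes tested fell. Their mean level was 7.88 to 8.09 in control sperm, 7.66 and 7.25 in low protein sperm, 7.41 in caloric restriction sperm, and 9.19 and 9.06 in epididymis. All 13 read lower than control under each restricted diet, with medians of -0.61 and -0.55, against -0.057 and -0.11 over all genes tested. Of the 13, 0 passed under low protein, as did 0% of all genes. Under caloric restriction 1 fell, where 0.0368% of all genes tested fell. All 12 smooth muscle genes fell in sperm against epididymis (median -3.10). Their mean level was 7.35 to 7.58 in control sperm, 7.07 and 6.73 in low protein sperm, 7.18 in caloric restriction sperm, and 9.99 and 10.02 in epididymis. Under each restricted diet 11 of the 12 read lower than control sperm. Actg2 read higher, by 0.20 under low protein and 0.41 under caloric restriction.

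Of 8 fibroblast and matrix genes tested 6 fell in sperm (median -0.94), of 3 endothelial genes 3 fell (median -0.57), and of 9 leukocyte genes 1 rose (median -0.019). In that comparison 30.1% of all genes tested fell and 18.4% rose. The fibroblast and matrix level was 7.93 to 8.20 in control sperm, 7.76 and 7.58 under low protein and 7.93 under caloric restriction, the last within the controls. The endothelial level was 5.99 to 6.15 in control sperm, 5.82 and 6.25 under low protein, so on both sides of the controls, and 5.88 under caloric restriction. The leukocyte level was 6.58 to 7.20 in control and 7.06 to 7.16 in restricted sperm arrays, 7.12 and 6.65 in epididymis. None of these lists was at 0 signal, since array values have no true 0. The part of tissue RNA in the differences between diets was not tested.

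**Figure D5:**
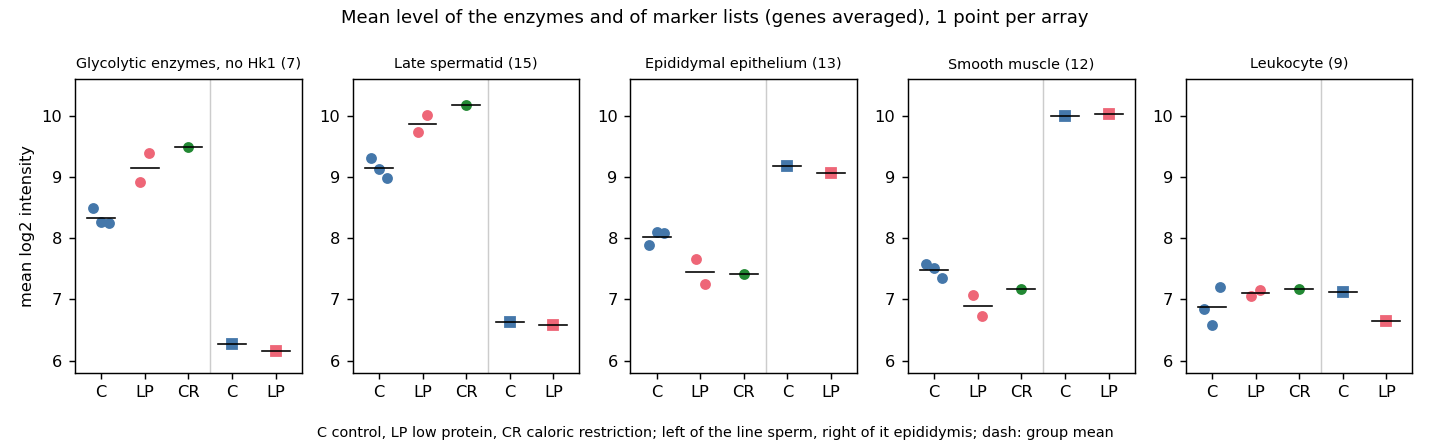
Mean log2 intensity (y axis) of 7 glycolytic enzymes without Hk1 and of 4 marker lists, with the number of genes in brackets, by diet and tissue; points are arrays and dashes are group means. The enzymes and the late spermatid list are higher, and the epithelium and smooth muscle lists lower, in the 3 restricted diet sperm arrays than in the 3 controls.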

How the data were processed

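RNA of 6 sperm and 2 epididymis samples was measured on 8 Affymetrix arrays. The authors deposited a log2 intensity for every probe set on each array. Per the submitters' processing notes RMA was used; for its version and the annotation, neither is given in the sources used here. RMA fits arrays to nearly 1 distribution, so a change in total RNA is not visible. Of 33660 probe sets, 21222 named 1 gene, 1541 several and 10897 none here; symbols were updated by gene identifier for 21137. The probe set of highest mean over 8 arrays stood for a gene. The lowest 30% of 19411 genes by mean (log2 5.69 and below) were left out. The number of arrays limits the precision.

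Tests used limma 3.58.1 in R 4.3.3 (lmFit, eBayes, two-sided, Benjamini-Hochberg over 13587 genes, threshold 0.05). They were also run on simulated data with independent normal noise, where the median estimate was checked against the planted change. That simulation held no outlying array and no shift shared by genes, so it does not check the calls made here. Sperm diets used 6 arrays with a mean per diet; tissues used 8 arrays with tissue and diet terms. Pairs of isoforms used an exact permutation test. The text names all members, the partners in the pairs, up to 3 genes of each pathway list per comparison with the largest change past the threshold, and 3 nearest profiles for each of Gapdhs, Pgk2 and Ldhc; exceptions are marked. The members and lists were chosen with earlier results of these data known. Alternatives were 3 other normalizations, other filters, the mean of probe sets, eBayes settings, no diet term, control diet only and leaving out each array. No 2 arrays held the same values.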

Additional observations from a re-analysis of the deposited data

How the results depend on the processing

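Between sperm and epididymis, 7 of 8 enzymes were called under most settings. Leaving out 1 sperm array gave 6 to 7, where 38.9% to 53.3% of all genes tested were called. Without the low protein epididymis array, a fit with 1 epididymis array, their median change was 1.83. For low protein against control, leaving out 1 control array called 0 enzymes and 0% of all genes. Without low protein replicate 1 or 2 their median change was 1.03 and 0.53. For caloric restriction, leaving out 1 control array gave 1 to 3, where 2.19% to 3.58% of all genes were called. For the restricted diets together, leaving out 1 array gave 0 to 6, where 0% to 10.5% of all genes were called. Between the 2 diets, leaving out 1 control array called 0 enzymes and 0% of all genes. With a trend in eBayes, the count for the restricted diets was 0, where 1.24% of all genes tested were called. For Hk1, sperm minus epididymis turned from -0.27 to 0.064 after quantile normalization, 0.18 after cyclic loess, 1.45 with the mean of its probe sets and 3.17 with the RefSeq probe set. Its low protein difference turned to 0.032, 0.23 and 0.90 under the last 3 settings, that of caloric restriction to 0.068, 0.36 and 0.87, and that of the restricted diets to 0.044, 0.27 and 0.89. Between low protein and caloric restriction, Hk1 turned to 0.038 with the RefSeq probe set, Aldoart2 to 0.19 after quantile normalization and Gapdhs to 0.024 after cyclic loess. Apart from the choice of Hk1 probe set, the cause was not tested. In that comparison leaving out 1 array gave -0.42 to 0.052 for Gapdhs, -0.26 to 0.16 for Aldoart2, -0.14 to 0.56 for Pgk2, -0.70 to 0.099 for Hk1 and -0.075 to 0.53 for Aldoart1. The RefSeq probe set for Hk1 and the test of the diet effect between tissues were added after seeing the data. No paired analysis was possible because the labels carry no replicate numbers shared between groups. No background level or detection call was used here, so how far each signal stands above background is not known.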
